A study of Homo sapiens with 6 samples.

Results

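The mRNAs of 9 keratins (KRT5, KRT7, KRT8, KRT14, KRT17, KRT18, KRT19, KRT80 and KRT81) and of vimentin (VIM) were examined, 10 genes of the 57150 in the deposited expression table. Each was taken as the row with that gene symbol, keeping the row with the highest mean level where a symbol had several. The libraries came from K562, a human leukemia cell line that is widely used as an erythroid model. One group of 3 cell pools (KD) received siRNAs against αCP1 and αCP2, the C-rich RNA-binding proteins encoded by PCBP1 and PCBP2, and another group of 3 pools (CTRL) received control siRNAs; RNA was taken 72 h after transfection. The study used more than 1 siRNA sequence within each group. The table gives 1 FPKM (a level scaled to transcript length and sequencing depth) and 1 estimated count per gene for each group. No spread between pools could therefore be computed, and no test was run. Every interval below covers counting error only and takes the estimated counts as sequenced fragments.

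Keratins are the intermediate filament proteins of epithelial cells. Their filaments are built from obligate heterodimers, in which an acidic type I chain (KRT14, KRT17, KRT18 and KRT19 here) coils around a basic or neutral type II chain (KRT5, KRT7, KRT8, KRT80 and KRT81). KRT8 and KRT18 form the primary pair of simple epithelia, KRT7 and KRT19 accompany them in ductal and glandular epithelia, and KRT5 and KRT14 form the pair of basal cells of stratified epithelia. KRT17 is a keratin of skin appendages and of wounded or growing epithelium, KRT80 is widespread among epithelia, and KRT81 is a hair keratin. Vimentin is a type III protein that assembles with itself and is typical of mesenchymal and blood cells and of many cultured lines.

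The columns are named here as they are labelled, because the targeted genes did not check the labels. For PCBP1 the FPKM was 184 in the KD column and 188 in the CTRL column, and for PCBP2 it was 531 and 342. PCBP2 was therefore higher in the KD column, and each direction drawn below refers to the label only. Some markers that define K562 cells went against the labelled line too. Of 14 erythroid genes, 7 were listed at 0 in both columns, as were 34082 of all 57150 rows of the table. The 7 included GATA1, TAL1 and KLF1, the master factors of red cell development, and the embryonic globin gene HBZ. Another 4 of the 14 reached an FPKM of 1 in both columns, as did 22.4% of all rows, with HBE1 the highest (153 in KD and 35.4 in CTRL). The column totals were 13699340 counts in KD and 11680567 in CTRL. The paper reports more mapped read pairs than this for every single library, so the estimated counts need not be the fragments sequenced. The intervals below may therefore misstate the counting error, which was not tested.

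The coiled rods of these proteins end in a conserved stretch, the helix termination motif. The 30 coding bases there are shown for 2 type II members, KRT7 and KRT80, and 2 type I members, KRT17 and KRT18, because they set both chain types side by side, and they lie within 1 coding exon in each gene (GRCh37, same build as hg19). Capitals mark the bases that differ from KRT7.
KRT7: gccacctaccgcaagctgctggagggcgag
KRT80: gccacctacAgGaagctgGtggagggcgag
KRT17: gccacctaccgcCGCctgctggagggAgag
KRT18: gccacctaccgcCGCctgctggaAgATgGC
The stretches lie at chr12:52639379-52639408 (plus strand) for KRT7, chr12:52565990-52566019 (minus) for KRT80, chr17:39776919-39776948 (minus) for KRT17 and chr12:53346086-53346115 (plus) for KRT18. KRT80 differed from KRT7 at 3 of the 30 bases, KRT17 at 4 and KRT18 at 8, and the capitals CGC stand in both type I members and in neither type II member shown. The other members are not shown, so these stretches cannot tell whether CGC follows chain type. Over the whole encoded proteins, translated from the annotated coding sequences, the chain types separated without overlap. Type I members were 45.7% to 80.1% identical to each other (median 57.6%, 6 pairs) and type II members 40.7% to 65.1% (median 51.8%, 10 pairs). Pairs of a type I with a type II member had 26.9% to 35.5% identity (median 31.0%, 20 pairs). The closest members of a type were KRT14 and KRT17 (80.1%) and KRT7 and KRT8 (65.1%). Vimentin was 33.5% to 36.7% identical to the type I members and 31.2% to 38.8% identical to the type II members.

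The 10 genes split into 6 that were abundant, 1 near the detection limit and 3 with almost no reads. KRT18 was the most abundant, at an FPKM of 2309 in KD and 1748 in CTRL. Its rank among all genes of the table was 80 in KD and 73 in CTRL. KRT8, its partner, had an FPKM of 1505 in KD and 819 in CTRL, at ranks 124 and 145. By FPKM the simple-epithelial pair thus held the top places of the set in both columns. VIM had an FPKM of 688 in KD and 545 in CTRL. KRT7 had an FPKM of 540 in KD and 604 in CTRL. By FPKM, VIM was above KRT7 by 1.27 times in KD (95% counting interval 1.24 to 1.31) and KRT7 above VIM by 1.11 times in CTRL (1.07 to 1.14), an exchange that was not seen when counts were divided by the union of annotated exons, where VIM was above KRT7 in both columns. KRT17 had an FPKM of 444 in KD and 114 in CTRL, moving from rank 320 to rank 997. KRT80 had an FPKM of 97.8 in KD and 87.2 in CTRL. Together the 10 genes took 0.727% of all counts in KD and 0.552% in CTRL.

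Below these lay the hair keratin KRT81, with an FPKM of 1.68 in KD and 0.865 in CTRL from 37 and 19 counts. The basal pair was at the floor: KRT5 had 1 count in KD and 0 in CTRL, and KRT14 had 1 count in each column. KRT19, the type I chain of ductal epithelia, had 0 counts in both columns. If the estimated counts are sequenced fragments, a count of 0 allows up to 3 counts. That is a CPM (count scaled to a common column total) of 0.219 in KD and 0.257 in CTRL. The order of levels in FPKM was KRT18, KRT8, VIM, KRT7, KRT17, KRT80, KRT81, KRT14, KRT5 in KD, and every pair of neighbours differed beyond counting error except KRT14 and KRT5. In CTRL it was KRT18, KRT8, KRT7, VIM, KRT17, KRT80, KRT81, KRT14, with every pair of neighbours differing. By counts over union exon length, a scale added after the values were seen, the order changed to KRT18, KRT8, VIM, KRT17, KRT7, KRT80 in KD and to KRT18, VIM, KRT8, KRT7, KRT80, KRT17 in CTRL, with KRT81 and KRT14 below in both. The places of KRT8, VIM, KRT7, KRT17 and KRT80 therefore depended on the scale, and that of KRT18 did not. With 2 values per gene, no other gene could be named as most like any member in its pattern.

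**Figure D1:**
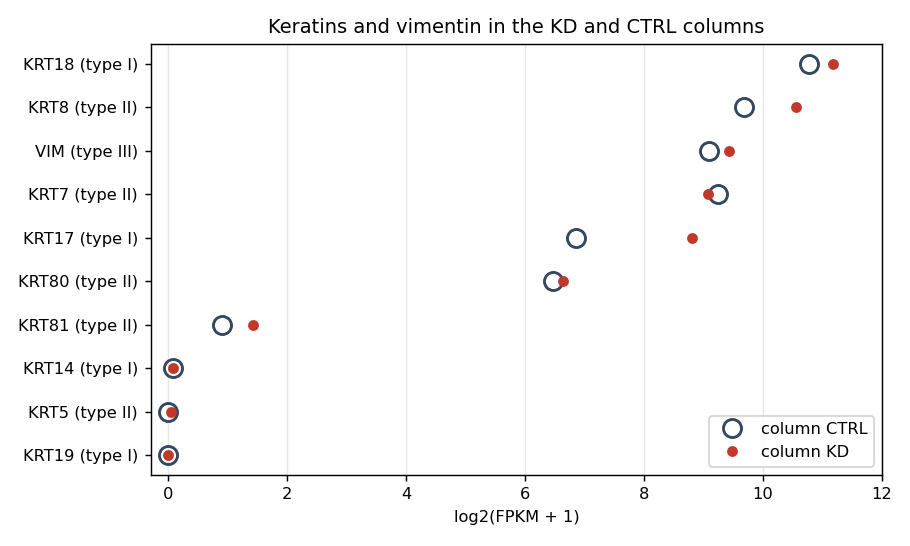
Levels of the 10 genes as log2(FPKM + 1), with open circles for the CTRL column and filled circles for the KD column, and the protein type beside each name. KRT18 and KRT8 lie highest, KRT17 shows the widest gap between the columns, and KRT5, KRT14 and KRT19 lie at or near 0.

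The genes lie in 3 places (GRCh37, coordinates of the annotated gene). The type II members KRT80 (chr12:52562780-52585798), KRT7 (chr12:52626304-52645970), KRT81 (chr12:52679697-52685318), KRT5 (chr12:52908359-52914314) and KRT8 (chr12:53290971-53343738) are in the keratin cluster of chromosome 12, and so is KRT18 (chr12:53342655-53346690), the type I gene that sits beside KRT8. The other type I members KRT19 (chr17:39679869-39684560), KRT14 (chr17:39738531-39743147) and KRT17 (chr17:39775694-39781094) are in the cluster of chromosome 17, and VIM is at chr10:17270240-17279592. Members of 1 cluster differed widely in level, since KRT7 and KRT5 stood at 540 and 0.0337 FPKM in KD, and KRT17 and KRT14 at 444 and 0.0537.

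Between the columns, log2 ratios were computed as (FPKM + 1) in KD over (FPKM + 1) in CTRL where the mean FPKM over both columns reached 1, a scale that understates the change of low genes. Of the 10 genes, 7 passed this filter, and KRT5, KRT14 and KRT19 did not. KRT17 was the 1 member with a log2 ratio of 1 or more, against 8.51% of the 13741 genes that passed, and 0 members had a ratio of -1 or less, against 3.27%. The ratio was above 0 for 6 of the 7 and below 0 for KRT7. Over the 7 the median was 0.40, and over all genes it was 0.01.

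KRT17 had 7409 counts in KD and 1776 in CTRL and a log2 ratio of 1.95 (3.88-fold). As a share of the column totals its log2 ratio was 1.83 (95% counting interval 1.76 to 1.91). KRT8 followed with 29724 and 14126 counts and a log2 ratio of 0.88 (1.84-fold), or 0.84 (0.81 to 0.87) by share. The keratin pair did not move in equal measure, as KRT18, with 36375 and 27271 counts, had a log2 ratio of 0.40, or 0.19 (0.16 to 0.21) by share. VIM had 14629 and 11587 counts and a log2 ratio of 0.33, or 0.11 (0.07 to 0.14) by share. For KRT81 the log2 ratio was 0.52, and the interval of its share included equality (-0.10 to 1.61).

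The direction depended on the scale for KRT7 and KRT80, and for KRT81 it turned with the GC and length trend removed (-0.05). KRT7 had a log2 ratio of -0.16 from FPKM, yet its 6842 counts in KD and 5592 in CTRL gave 0.06 (0.01 to 0.11) as shares. KRT80 had 0.16 from FPKM and -0.06 (-0.12 to 0.00) from its 4566 and 4058 counts. Dividing counts by the totals moved the median of all genes to -0.21, so that the ratio of KRT7 lay above that median by share and below the median of 0.01 by FPKM. The number of FPKM units per count, as a ratio of KD to CTRL, was 0.998 at the median of 10922 genes with at least 50 counts in both columns. It was 0.730 for KRT7, 0.874 for KRT8 and 0.929 for KRT17, and lay between 0.991 and 0.999 for KRT18, KRT80, KRT81 and VIM.

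**Figure D2:**
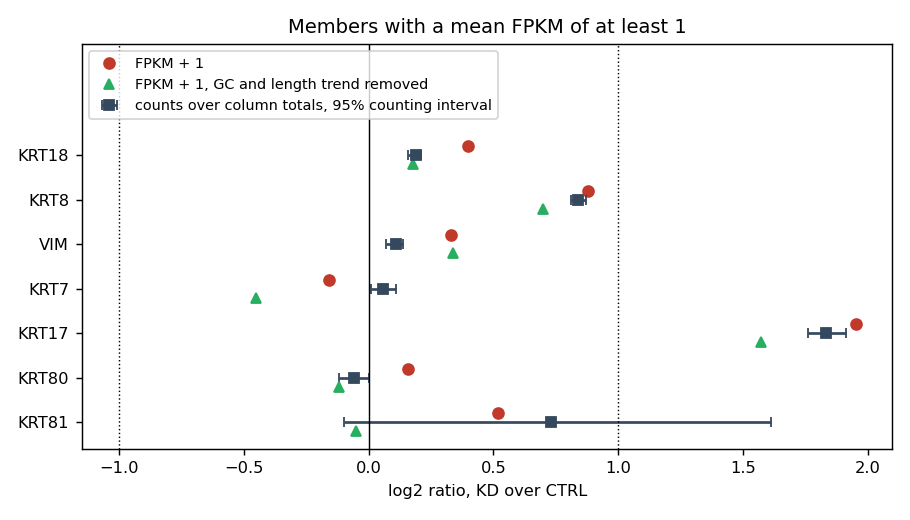
Log2 ratio of KD over CTRL for the 7 members that passed the filter, from FPKM + 1 (circles), from counts over column totals with the 95% counting interval (squares) and from FPKM + 1 after removal of the GC and length trend (triangles); dotted lines mark 1 and -1. KRT17 lies beyond 1 on each scale, and KRT7, KRT80 and KRT81 have values on both sides of 0.

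Base composition moved with these ratios. The members that passed had a median exonic GC content of 57.5%, against 47.8% over all genes, and the median log2 ratio of all genes was -0.24, -0.12, 0.09 and 0.48 in 4 equal groups of rising GC content. All 6 keratins that passed fell in the richest group, and VIM, with 50.3% GC, fell in the third. Among genes of its own group KRT17 (59.0% GC) was at percentile 97.4 and KRT8 (55.9%) at 73.3, whereas KRT18 was at 44.7, KRT80 at 28.9 and KRT7 at 13.8. VIM was at percentile 67.3 of its group. With a trend in GC content and length removed, log2 ratios were 1.57 for KRT17, 0.70 for KRT8, 0.34 for VIM, 0.18 for KRT18, -0.05 for KRT81, -0.12 for KRT80 and -0.45 for KRT7, and 4 of the 7 were above 0. The part of base composition in these differences beyond this removal was not tested.

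**Figure D3:**
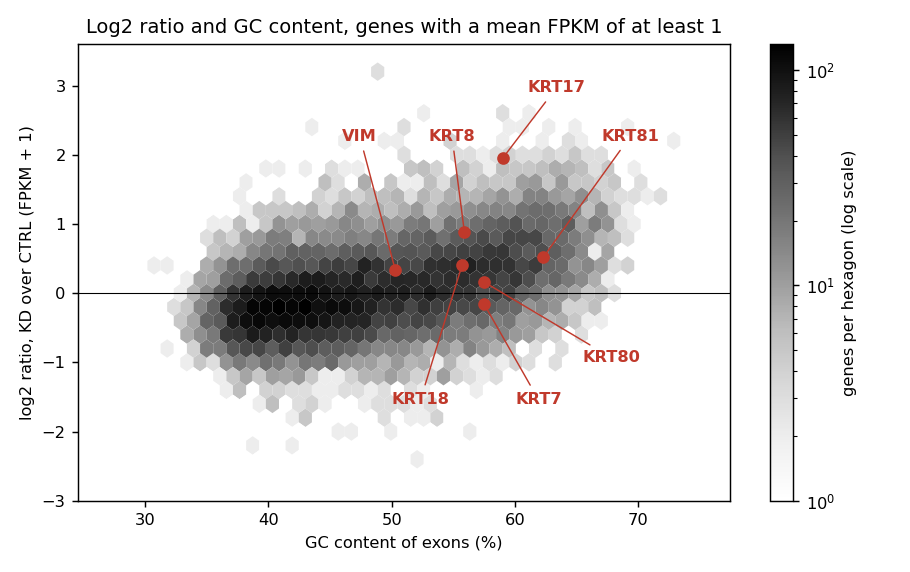
Log2 ratio of KD over CTRL against exonic GC content for 13298 genes that passed the filter, shaded by genes per hexagon on a log scale; 31 genes lie outside the vertical range. Members are red points, and the 6 keratins lie at 55.7% GC or more, with KRT17 near the upper edge of genes of like GC content.

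Type I and type II keratins were then set against each other, since the 2 chain types enter the filament in equal numbers. All 54 keratin genes of the lists, 28 of type I and 26 of type II, were in the table. Summed FPKM over type I was 2808 in KD and 1930 in CTRL, and over type II it was 2146 and 1512. Type II mRNA was thus below type I in both columns, at 0.764 of it in KD (95% counting interval 0.754 to 0.775) and 0.783 in CTRL (0.770 to 0.798). The ratio in KD was 0.976 times that in CTRL (0.954 to 0.998), so that the sums of both types were higher in KD by nearly the same factor. When counts were instead divided by the union of all annotated exons, the ratio was 0.477 in KD and 0.432 in CTRL, lower than by FPKM and higher in KD than in CTRL. Undivided counts gave 0.915 and 0.778. Type II therefore stayed below type I on each scale, and the small difference between the columns turned with the scale.

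The composition behind the near-equal balance differed between the columns. KRT18 made up 82.3% of type I FPKM in KD and 90.5% in CTRL, and KRT17 made up 15.8% and 5.93%. Within type II, KRT8 made up 70.1% in KD and 54.1% in CTRL, KRT7 25.1% and 40.0%, and KRT80 4.56% and 5.77%. The ratio of KRT8 to KRT18 was 0.652 in KD (0.642 to 0.662) and 0.468 in CTRL (0.459 to 0.478), 1.39 times higher in KD (1.36 to 1.43), or 1.58 times by counts. Among the remaining keratins the FPKM balance lay the other way, with type II over type I at 1.29 in KD (1.25 to 1.33) and 3.80 in CTRL (3.64 to 3.96). KRT7 over KRT17 was 1.22 in KD (1.18 to 1.26) and 5.28 in CTRL (5.01 to 5.57). By counts over union exon length, added after the values were seen, KRT7 over KRT17 was 0.692 in KD and 2.36 in CTRL, and by undivided counts it was 0.924 and 3.15. KRT7 thus exceeded KRT17 in CTRL on each scale, in KD it did so by FPKM only, and the ratio was lower in KD on each. Without KRT8 and KRT18, type II over type I was 0.914 in KD and 1.79 in CTRL by counts over union exon length, and 1.32 and 2.88 by undivided counts. For the textbook pairs KRT5 with KRT14 and KRT7 with KRT19 no ratio was computed, because 1 or both partners had 0 or 1 counts.

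**Figure D4:**
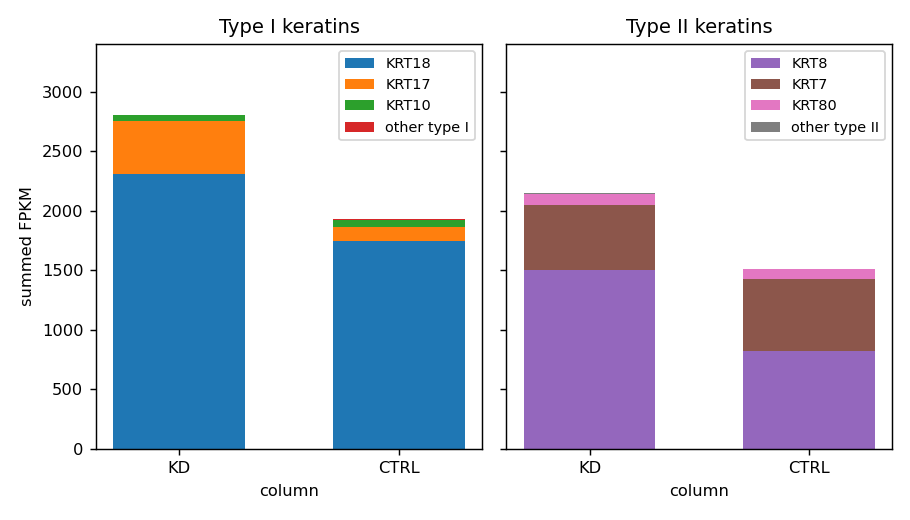
Summed FPKM of type I keratins (left) and type II keratins (right) in each column, stacked by gene, with an axis from 0. KRT18 and KRT8 are the largest blocks, and the blocks of KRT17 and KRT8 are taller in KD while that of KRT7 is not.

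Keratin genes were also counted over the whole family, members included. An FPKM of at least 1 in both columns was reached by 5 type I and 4 type II genes of the 54, and by 22.4% of all rows of the table. Listed at 0 in both columns were 28 of the 54, 11 of type I and 17 of type II, and 34082 of all 57150 rows. Zeros were thus no more common among keratins than over all rows. The non-members at 1 or more in either column were KRT10, the type I chain of differentiating epidermis, with an FPKM of 48.5 in KD and 60.6 in CTRL, KRT15, a basal cell keratin, with 2.72 and 4.51, and the hair keratins KRT34, with 1.47 in both columns, and KRT86, with 1.74 and 1.04. KRT10 had a log2 ratio of -0.32, or -0.55 by share, and was the most abundant of the type I keratins with a ratio below 0.

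Several of these values rest on sequence that other genes share. The library kit did not mark the strand, so reads from overlapping genes of opposite strands cannot be told apart. KRT8 and KRT18 overlap head to head on opposite strands, with 525 exonic bases in common, and 18.5% of the 100-base windows of the KRT18 transcript occur in KRT8 transcripts. For VIM, 26.4% of windows occur in its antisense gene VIM-AS1, which had an FPKM of 0.272 in KD and 1.30 in CTRL from 4 and 19 counts. For KRT7, 8.3% occur in KRT7-AS. KRT81 shared 29.4% of its windows with KRT86, so its level is uncertain. KRT17 shared 0.4% of the windows of its 1 annotated transcript used here, and KRT80 and KRT19 shared 0%. Over all its annotated exons, KRT17 had 307 bases in common with a long noncoding RNA gene of the opposite strand. The part of the KRT17 reads that came from that gene was not tested.

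Processed copies of KRT8 and KRT18 are common in the genome, and 100 keratin pseudogene rows were listed, 43 of KRT8 and 39 of KRT18. Of these, 72 were at 0 in both columns and 4 had an FPKM of at least 1 in both. KRT8P3, named after its value was seen, had the highest, at 29.4 in KD and 5.93 in CTRL from 342 and 71 counts, and it holds 4.2% of the windows of KRT8. Adding all pseudogenes to their type changed type II over type I to 0.777 in KD and 0.789 in CTRL. These additions were small beside KRT8 and KRT18 themselves.

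Among other intermediate filament genes, 8 of 16 were at an FPKM of 1 or more in both columns, and 22.4% of all rows of the table were. Besides VIM, the most abundant by mean FPKM were those of the nuclear lamina. LMNA, which encodes lamin A and C, had an FPKM of 534 in KD and 249 in CTRL, LMNB1 had 41.2 and 60.6, and LMNB2 had 21.6 and 18.7. SYNC had 17.5 in KD and 19.2 in CTRL, above LMNB2 in CTRL. LMNA was the 1 gene of the 8 with a log2 ratio of 1 or more, at 1.10, and 0 were at -1 or less, where 8.51% and 3.27% of all genes were. Its ratio was 0.87 by share and 0.80 with the GC and length trend removed, below 1 on both. The median of the list was 0.03. Neurofilament genes NEFL, NEFM and NEFH were listed at 0, and the type III gene DES had an FPKM of 0.693 in KD and 0.423 in CTRL. SYNC, NEFL, NEFM, NEFH and DES were named after their values were seen.

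Genes whose proteins tie intermediate filaments to desmosomes, hemidesmosomes or the other cytoskeletons were nearly all present. Of these, 11 of 12 were at an FPKM of 1 or more in both columns, where 22.4% of all rows were. JUP, which encodes plakoglobin, had an FPKM of 357 in KD and 216 in CTRL (log2 ratio 0.72), DSP, which encodes desmoplakin, had 27.3 and 23.5 (0.21), and the cross-linkers DST and MACF1 had 47.5 and 60.4 (-0.34) and 46.9 and 56.5 (-0.26). A log2 ratio of 1 or more was found for 5 of the 11, against 8.51% of all genes, and of -1 or less for 0, against 3.27%. These were PLEC, which encodes plectin (1.57), EPPK1 (an FPKM of 7.93 in KD and 2.38 in CTRL), PKP2 (1.10), EVPL (1.09) and PKP3 (1.03), named after their values were seen. The median of the list was 0.72, against 0.01 over all genes, and 0.25 with the GC and length trend removed, against 0.06. EPPK1 had no match for GC content and length and has no value after the removal. The medians of the list before and after the removal therefore cover different genes, and the part of this in the lower value was not tested. PLEC, EVPL and PKP3 have 64.2% to 67.2% GC and stood at 0.94, 0.52 and 0.22 after the removal, while PKP2, in the second of the 4 GC groups, stood at 1.31.

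Cell identity was read from marker lists beside these filament genes. Over all rows of the table, 22.4% were at an FPKM of 1 or more in both columns. In bulk RNA, fewer cells of a type and less RNA per cell cannot be told apart. Of 12 epithelial surface genes, 8 were at an FPKM of 1 or more in both columns, led by the mucin gene MUC1 (296 in KD and 107 in CTRL), the tight junction gene CLDN7 (79.5 and 40.6) and the hemidesmosome integrin ITGB4 (49.7 and 69.9). The classical epithelial adhesion gene CDH1, E-cadherin, was at 0.363 and 0.426, and EPCAM was at 3.94 and 3.26. CDH3 was at 0.113 and 0.693, CLDN3 at 0.0730 and 0, and RAB25 at 0 in both columns. CDH1, EPCAM, CDH3, CLDN3 and RAB25 were named after their values were seen. The epithelial set was therefore partly present, as with the keratins, where KRT8, KRT18 and KRT7 were high and KRT19 was at 0. Of 12 epithelial transcription regulators, 5 reached an FPKM of 1 in both columns, among them ELF3 (56.9 and 68.2), KLF4 (46.6 and 33.7), ESRP2 (22.7 and 18.8) and KLF5 (15.6 and 17.6). TP63, the factor of basal cells where KRT5 and KRT14 are made, had 1 count in KD and 0 in CTRL. ESRP1, OVOL1 and OVOL2 were listed at 0 in both columns, and GRHL2, GRHL3 and EHF had 0 to 2 counts in each column. These regulators at or near 0 were named after their values were seen.

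Genes that accompany vimentin in mesenchymal cells were present in part, at lower levels. Over all rows of the table, 22.4% reached an FPKM of 1 in both columns. Of the 10 mesenchymal genes, 6 reached an FPKM of 1 in both columns, led by TAGLN (14.5 and 15.1), CDH2, N-cadherin (10.3 and 10.8), ACTA2, smooth muscle actin (16.5 and 3.31), and FN1, fibronectin (4.94 and 4.05). ACTA2 was the 1 of these 6 with a log2 ratio of 1 or more, at 2.02, where 8.51% of all genes were. Of 6 factors that drive the epithelial to mesenchymal transition, 5 reached an FPKM of 1, and the highest were TWIST1 (6.89 and 4.51), ZEB1 (4.01 and 5.66), SNAI2 (3.41 and 4.17) and TWIST2 (3.45 and 3.22). VIM stood at least an order of magnitude above each of these genes in both columns. The mesenchymal genes COL1A2 and SPARC were listed at 0 in both columns, COL3A1 had 1 count in each, and THY1 had 5 in KD and 4 in CTRL. These were named after their values were seen. The summed FPKM of the mesenchymal list was 53.6 in KD and 37.5 in CTRL.

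Blood cell markers were present in part, and HBE1 was the highest. Over all rows, 22.4% reached an FPKM of 1 in both columns, near the share in both blood lists. Of the 14 erythroid genes, 4 reached an FPKM of 1 in both columns: the embryonic globin gene HBE1 (153 and 35.4), GATA2 (16.9 and 10.1), EPOR, the erythropoietin receptor (3.55 and 5.08), and HBG2 (4.33 and 1.63). The summed FPKM of the list was 179 in KD and 53.5 in CTRL, most of it from HBE1, while the fetal globin gene HBG1 had 1 count in KD and 0 in CTRL. Of 10 pan-hematopoietic genes, 2 reached an FPKM of 1, ARHGDIB (5.62 and 3.92) and VAV1 (2.23 and 1.70), and the sum was 8.62 in KD and 6.42 in CTRL. The leukocyte markers PTPRC, which encodes CD45, and LAPTM5 were listed at 0 in both columns. All 12 genes that every cell uses were present, led by ACTB (9242 and 6738), while 34082 of the 57150 rows were at 0 in both columns. Genes chosen for use in every cell could not show whether zeros were particular to the blood lists. The keratins stood in columns in which the erythroid factors GATA1, TAL1 and KLF1 were at 0, and which cells gave these values was not tested.

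**Figure D5:**
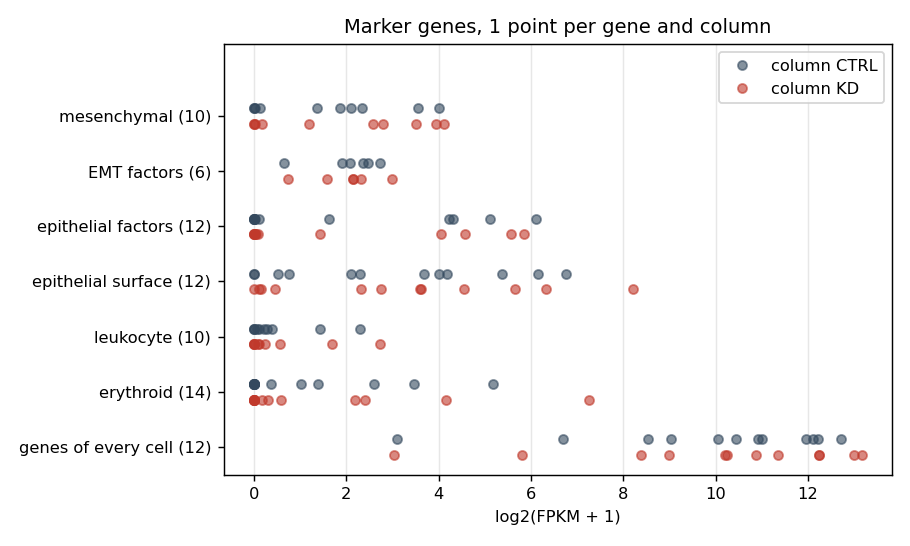
Levels of marker genes as log2(FPKM + 1), 1 point per gene, with CTRL above and KD below in each list and the number of genes in parentheses. Erythroid and leukocyte genes cluster at 0 apart from a few, of which HBE1 is the highest, and epithelial surface genes spread from 0 to MUC1 in both columns.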

How the data were processed

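RNA-seq of 6 K562 libraries (TruSeq, paired-end) was analysed from 1 table. The authors mapped reads with TopHat 1.4.1 to hg19 and Ensembl transcripts and computed the deposited FPKM values with Cuffdiff 2.2.0. The deposited estimated counts, 1 per gene and group, need not be whole, and the way in which a group's 3 libraries were merged is not given in the sources used here. The authors' fold change, p-value, FDR and mean FPKM columns of the table hold their own comparison and were not used.

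Log2 ratios used FPKM + 1 where the mean FPKM reached 1, and members were called at a log2 ratio of 1 or -1. Exact binomial 95% intervals were computed from the counts, rounded to whole numbers, for single genes and for neighbours in the order of levels. For ratios of type II over type I keratins, including single pairs of genes, 95% intervals used a normal approximation on the log scale. Its variance came from the Poisson error of the counts. All intervals cover counting error only, on the assumption that the deposited counts are sequenced fragments. No fold was given where both counts were 3 or fewer. The tests planned across libraries need values per library, which the table lacks. Alternatives were a pseudocount of 0.1, counts over column totals, subtraction of a trend, quadratic in GC content and in log2 length (13298 genes with a match), other filters and other ways to sum keratins. Coordinates, coding sequences and 100-base windows came from GRCh37 with GENCODE release 44, 1 annotated transcript per member for coding sequence. Proteins were aligned end to end, and identity is over aligned residues. The named genes were the members, other keratins with an FPKM of at least 1 in either column, the 4 most abundant genes of each other list, K562 markers and the targeted genes; some of these are not reported here. Members and lists were chosen with earlier results of these data known. The functions were tested on simulated data. The software was Python 3.11.15 with scipy 1.17.1, numpy 2.4.6, Biopython 1.88, pandas 2.3.3 and matplotlib 3.10.9.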

Additional observations from a re-analysis of the deposited data

How the results depend on the processing

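Across 38 results, 90 values were computed under alternatives. Of these, 55 stayed within the counting interval, or within 1.5 times for a count, and 35 moved further. The 55 include sums over all rows of a symbol for the 10 members, which could not differ because each had 1 row. They also include KRT81 at -0.05, within its wide interval. For KRT17, the only member past a log2 ratio of 1, 0 values turned the direction. Below that size the sign turned for KRT7, KRT80 and KRT81 on some scales. With counts over column totals, the log2 ratio was 1.83 for KRT17, 0.84 for KRT8, 0.19 for KRT18, 0.11 for VIM, 0.06 for KRT7 and -0.06 for KRT80, where the median of all genes moved to -0.21. With the GC and length trend removed it was 1.57 for KRT17, 0.70 for KRT8, 0.18 for KRT18, -0.12 for KRT80 and -0.45 for KRT7. Type II over type I in KD was 0.779 over the members only, 0.477 with counts over union exon length, 0.915 with counts not divided by length and 0.777 with pseudogenes added, and in CTRL it was 0.811 over the members only and 0.432 with counts over union exon length. Of the ratios KRT8 over KRT18, KRT7 over KRT17 and type II over type I without KRT8 and KRT18, those under other scales stand beside their FPKM values, and for the latter pair of ratios these scales were chosen after seeing the data. The cause of these moves was not tested. At an FPKM of at least 5 in place of 1, fewer genes were counted by construction: 3 type I keratins, 0 factors of the epithelial to mesenchymal transition, 2 mesenchymal, 2 erythroid and 0 pan-hematopoietic genes. At 0.1 there were 9 type I keratins and 4 pan-hematopoietic genes. No paired analysis was possible because each group has a single deposited value per gene, and fits without single libraries were not run for the same reason. Depth limits KRT5, KRT14, KRT19 and KRT81, with 0 to 37 counts.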
